A study of Mus musculus with 9 samples.

Results

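The BCL2 family decides whether the mitochondrial pathway of apoptosis is started, and 10 of its genes were followed here through 3 groups of mouse macrophages that differed in the form of tristetraprolin (TTP) they expressed. The genes were taken by name from the deposited expression table, all were kept whatever their values, and they were 10 of 25494 genes listed there. Earlier results of these data were known when the list was made. The study itself had named Bbc3, Pmaip1 and Bak1 after seeing these libraries together with translation libraries. The shares of all genes given below are thus a background and not a test of the list. The 10 comprised 7 pro-death genes, namely the BH3-only genes Bbc3, Pmaip1, Bcl2l11, Bid and Bad and the effectors Bak1 and Bax, and the 3 pro-survival genes Mcl1, Bcl2l1 and Bcl2. In the cells with TTP-AA, a TTP that cannot be phosphorylated at its MK2 sites, Bbc3 RNA was 1.96 times and Bak1 RNA 1.39 times the level of the GFP cells, while Pmaip1 RNA was 0.626 times that level. On the log2 scale, Bbc3 and Pmaip1 differed from GFP by at least 0.5 in TTP-AA, 2 of the 10, and Bak1 (0.47) did not. Of 13027 genes with a mean of at least 10, 8.58% differed by that much. In the cells with wild-type TTP none of the 10 differed from GFP by as much as 0.5, where 5.22% of these genes did.

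RNASeq of ribosome-depleted total RNA was made from immortalized bone marrow-derived macrophages (BMDMs) of TTP-deficient mice, with 3 biological replicates in each of 3 groups, 9 libraries in all. The GFP group carried a vector for GFP alone, the TTP group a vector for GFP-TTP, and the TTP-AA group a vector for GFP-TTP-AA with the mutations S52A and S178A. The study describes a separate transduced cell line for each vector. Differences between lines and differences between forms of TTP therefore cannot be told apart. All groups shared the loss of endogenous TTP (gene Zfp36), the oncogenes hcmyc and hRasG12V used for immortalization, doxycycline at 1 µg/ml for 6 h to switch the vector on, and lipopolysaccharide (LPS, a bacterial agonist of the receptor TLR4) at 1 µg/ml for 1 h. TTP was thus supplied by a retroviral, doxycycline-driven promoter as a coding sequence without its own UTRs, in oncogene-driven cells sorted for GFP, and every library came from LPS-treated cells, so that no level before LPS was among them.

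In the intrinsic pathway, BH3-only proteins act as sensors of stress, binding and neutralizing the pro-survival proteins or activating the effectors directly. The effectors BAX and BAK then permeabilize the outer mitochondrial membrane, cytochrome c leaks into the cytosol and caspases are activated. In macrophages the balance between both sides sets survival during inflammatory activation, and MCL1 in particular is a short-lived protein made from a short-lived mRNA. TTP binds AU-rich elements in 3′UTRs and recruits deadenylases, and its phosphorylation by the kinase MK2 after LPS restrains this activity.

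Since AU-rich elements are the known landing sites of TTP, the 3′UTRs of the 10 genes were searched on the sense strand for the 7-base motif TATTTAT in the transcript with the longest coding sequence (GENCODE, GRCm38). It was present in 5 of the 10 genes, with 4 copies in Pmaip1, 3 in Mcl1, 2 in Bcl2l11, 2 in Bcl2 and 1 in Bcl2l1, and no copy was found in Bbc3, Bid, Bad, Bak1 or Bax. Both copies in Bcl2 lay within the longer motif TTATTTATT, which no other member held. Of all 11360 3′UTRs of genes passing the filter on low values, 27.4% held TATTTAT and 7.11% held TTATTTATT. Length has to be kept in view, because Bcl2 and Bcl2l11 have 3′UTRs of 5086 and 4218 bases, and among 3′UTRs of like length 63.0% and 61.3% held the 7-base motif, against 5.42% for the 165 bases of Bax and 9.87% for the 375 bases of Bad. The windows below show 7 of these sites with 9 bases on either side, to show the bases around the motif in the 3 pro-survival mRNAs and in Bcl2l11. A further Mcl1 site, whose window adjoins that of the second one shown, is left out. Letters are those of the mRNA strand, 5′ to 3′, and the capitals mark TATTTAT.
Bcl2l11 (chr2:128161111-128161135, plus strand): tattttgacTATTTATtagattaga
Bcl2l11 (chr2:128161345-128161369, plus strand): gatgttgtaTATTTATtttccgctt
Mcl1 (chr3:95660884-95660908, plus strand): aaacatgtgTATTTATgaaggtgga
Mcl1 (chr3:95662605-95662629, plus strand): tagtttgctTATTTATgtttaactc
Bcl2l1 (chr2:152780894-152780918, minus strand): gcgtgtctgTATTTATgtgtgagga
Bcl2 (chr1:106542997-106543021, minus strand): aaaaagattTATTTATttaagacag
Bcl2 (chr1:106539918-106539942, minus strand): gcatattctTATTTATtacatctaa
The first Mcl1 site starts at base 70 of the 3′UTR, close behind the stop codon, and the Bcl2l1 site lies 231 bases before the transcript end in a 3′UTR of 43.2% A or T, against 58.8% in Mcl1. A match to these letters is a description of the sequence and says nothing about binding.

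The values below are fitted counts from the deposited table, scaled here to a common library size. They are the authors' model means and hold no scatter between replicates: the 3 values of a group differ only by a replicate-number term that is the same in every group. No test between groups could therefore be made from them, and no p-value is given. Intervals are 95% counting intervals on the log2 difference, which cover counting error only and leave out the scatter between cultures, and a difference of at least 0.5 on the log2 scale is used as a mark of size, not as a test. Fitted totals were 21482954 to 102613526 per library, the largest being TTP-AA replicate 3. All 7 macrophage markers had a mean of at least 10, with summed scaled values, most of them from Lyz2, of 553611 to 771495 in GFP, 455419 to 628726 in TTP and 632232 to 876015 in TTP-AA. Within the list Adgre1, which encodes F4/80, had means of 16986, 10043 and 27255 in GFP, TTP and TTP-AA and Fcgr1 had 672, 290.0 and 514, and their part in the results was not tested. Of 15 markers of T cells, B cells, neutrophils, fibroblasts and epithelial cells, those listed had means under 10 apart from S100a8, the 1 listed of 3 neutrophil markers. It had 112 to 180.4 in GFP, 114 to 182 in TTP and 191 to 307 in TTP-AA, and its part in the results was not tested. In bulk RNA, fewer cells of a kind and less RNA per cell cannot be told apart.

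The targeted gene Zfp36, which the TTP and TTP-AA vectors put back, had scaled fitted counts of 1744, 1423 and 890.2 in the GFP libraries, 1787, 1447 and 913 in TTP, and 2828, 2298 and 1443 in TTP-AA. The TTP libraries lay next to the GFP libraries (log2 difference 0.03, interval -0.04 to 0.10), so the gene gave no check of the TTP label. TTP-AA stood higher than GFP (0.69, interval 0.64 to 0.75), with ranges that overlapped. An antisense gene, Gm44710, overlaps exons of Zfp36, and the sources used here do not say whether reads were counted by strand.

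Bbc3 (ENSMUSG00000002083, chr7:16308393-16318205, plus strand, GRCm38) encodes PUMA, a BH3-only protein and classical p53 target that neutralizes all pro-survival members. Its scaled fitted counts were 1146, 1305 and 1482 in the GFP libraries, 1224, 1384 and 1585 in the TTP libraries and 2252, 2555 and 2911 in the TTP-AA libraries. All TTP-AA libraries were above all libraries of the other groups, whereas GFP and TTP overlapped. The log2 difference was 0.97 for TTP-AA vs GFP (interval 0.92 to 1.03) and 0.88 for TTP-AA vs TTP (interval 0.82 to 0.94), against 0.09 for TTP vs GFP (interval 0.02 to 0.16). Only 1.22% of all genes with a mean of at least 10 stood higher in TTP-AA vs GFP, and 3.42% did so in TTP-AA vs TTP. Bbc3 had the largest difference of the 10 members in both comparisons with TTP-AA.

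Pmaip1 (ENSMUSG00000024521) encodes NOXA, the BH3-only protein that binds mainly MCL1 and directs it to degradation. It was the member past 0.5 in the lower direction. The GFP libraries had 3639.6, 4053 and 2788, the TTP libraries 3341, 3693 and 2563, and the TTP-AA libraries 2283, 2532 and 1748. Every TTP-AA library was below every GFP and every TTP library, although the gap was narrow, 2532 for the highest TTP-AA library against 2563 for the lowest TTP library. The log2 difference was -0.67 for TTP-AA vs GFP (interval -0.72 to -0.63), a ratio of 0.626, and -0.55 for TTP-AA vs TTP (interval -0.59 to -0.50). In TTP vs GFP it was -0.13 (interval -0.17 to -0.08) and the libraries overlapped. Of all genes, 1.26% stood lower in TTP-AA vs GFP. Pmaip1 is also the member with the most copies of TATTTAT, a motif held by 39.9% of 3′UTRs of like length. A link between the motif and the level of Pmaip1 was not tested.

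**Figure D1:**
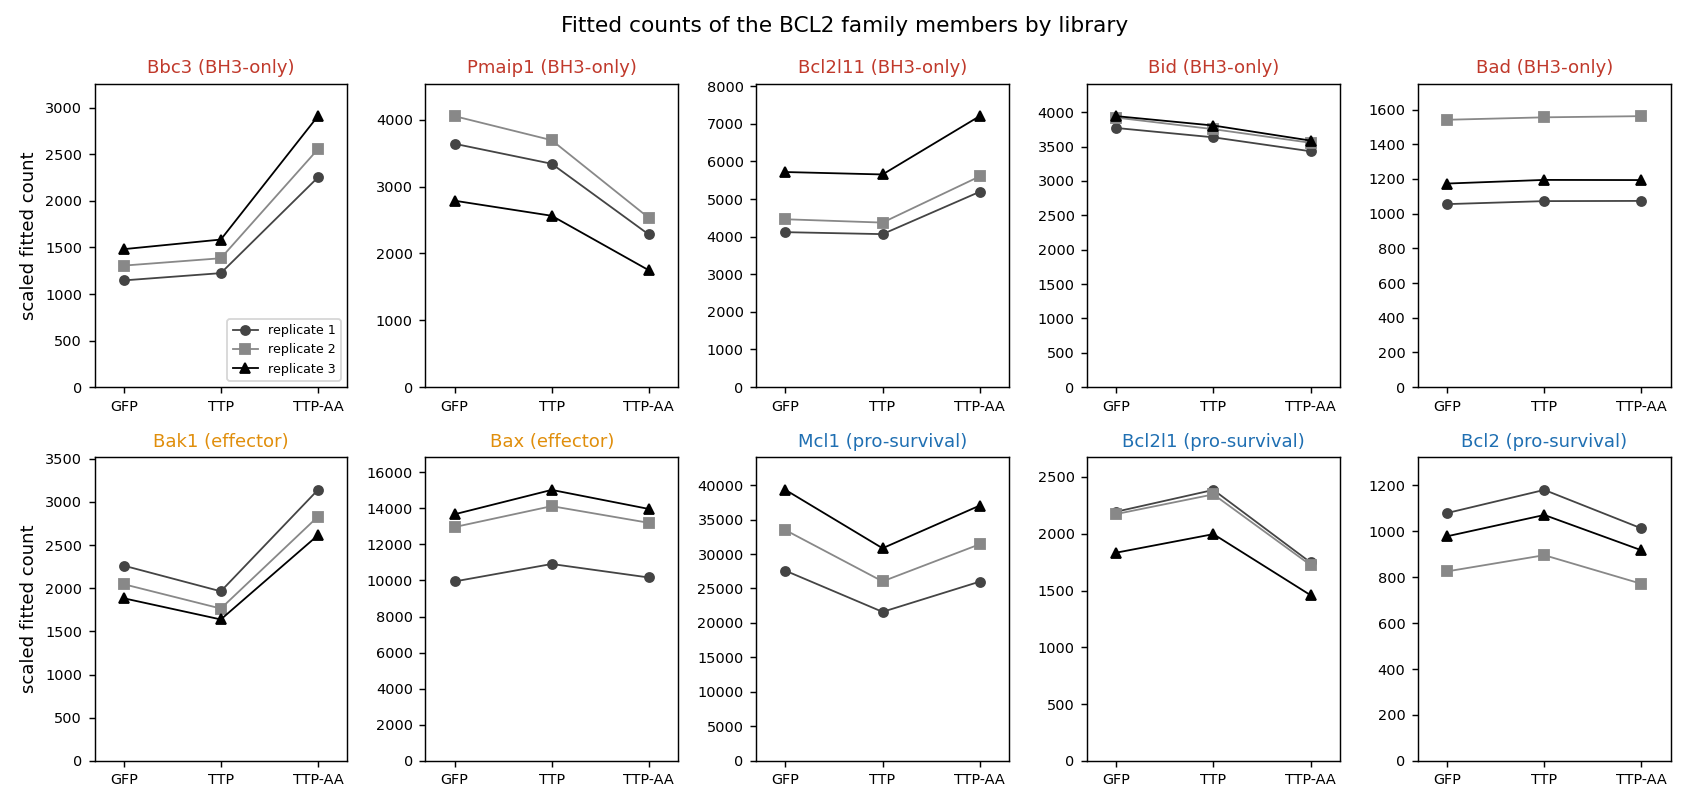
Scaled fitted count (vertical axis, from 0) of each member in the GFP, TTP and TTP-AA groups, with 1 point per library and lines joining libraries of the same replicate number; title colours give the role. Bbc3 runs from 1146 to 1482 in GFP and from 2252 to 2911 in TTP-AA, Pmaip1 runs the other way, and the parallel lines are a property of the fitted values.

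The other BH3-only genes differed less. Bcl2l11 (ENSMUSG00000027381, chr2:128126038-128162547), which encodes BIM, an activator of BAX and BAK that binds every pro-survival protein, had 4119, 4462 and 5717 in GFP, 4067, 4374 and 5653 in TTP and 5191, 5602 and 7203 in TTP-AA. The fitted values were higher in TTP-AA but the ranges of the groups overlapped. The log2 difference was 0.33 for TTP-AA vs GFP (interval 0.30 to 0.36), 0.35 for TTP-AA vs TTP (interval 0.32 to 0.39) and -0.02 for TTP vs GFP (interval -0.06 to 0.02). Bcl2l11 was thus on the same side as Bbc3 in both comparisons of TTP-AA, at a size below 0.5, and is the BH3-only gene with 2 copies of TATTTAT shown above.

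Bid (ENSMUSG00000004446, chr6:120891930-120916853), whose product is cut by caspase-8 and carries death-receptor signals to mitochondria, had 3770.3, 3921 and 3943 in GFP, 3635, 3753 and 3806 in TTP and 3432, 3555 and 3587 in TTP-AA. The TTP-AA range lay below the other ranges, but the difference was small, -0.14 against GFP (interval -0.18 to -0.10) and -0.08 against TTP (interval -0.12 to -0.04). The replicate term of Bid spanned only 0.06 on the log2 scale, the smallest of the 10 members. Bad (ENSMUSG00000024959, chr19:6941861-6951899), which is held inactive by survival-factor kinases, had 1055, 1541 and 1174 in GFP, 1072, 1556 and 1195 in TTP and 1074, 1562 and 1194 in TTP-AA. The groups overlapped almost fully, and the log2 differences were 0.02 for both comparisons with GFP (intervals -0.05 to 0.09 for TTP and -0.04 to 0.09 for TTP-AA), and turned to -0.16 and -0.08 once each chromosome was centred on its median, which was 0.18 for chromosome 19 in TTP vs GFP. Exons of Bid overlap Bcl2l13 and exons of Bad overlap Gpr137, each on the other strand, and unless reads were counted by strand, those of such pairs cannot be told apart.

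Of the effectors, which form the pores of the outer mitochondrial membrane, Bak1 differed and Bax hardly did. Bak1 (ENSMUSG00000057789, chr17:27019810-27029009) encodes BAK, which sits in the membrane and is held in check by MCL1 and BCL-XL. It had 2261, 2046 and 1883 in GFP, 1964, 1764 and 1638 in TTP and 3139, 2829 and 2613 in TTP-AA, so that all TTP-AA libraries were above all others and GFP and TTP overlapped. The log2 difference was 0.68 for TTP-AA vs TTP (interval 0.63 to 0.73) and 0.47 for TTP-AA vs GFP (interval 0.42 to 0.52). For TTP vs GFP it was -0.21 (interval -0.26 to -0.15), so TTP and TTP-AA lay on opposite sides of GFP. Ggnbp1, on the opposite strand, shares exon positions with Bak1.

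Bax (ENSMUSG00000003873, chr7:45461697-45466898) encodes the effector that moves from the cytosol to mitochondria. It had 9946, 12961 and 13669.5 in GFP, 10913, 14119 and 15020.3 in TTP and 10165, 13195 and 13965 in TTP-AA. The ranges of all groups overlapped. The log2 differences were 0.13 for TTP vs GFP (interval 0.11 to 0.15), 0.03 for TTP-AA vs GFP (interval 0.01 to 0.05) and -0.10 for TTP-AA vs TTP (interval -0.12 to -0.08), all far inside 0.5. Gm45808 overlaps its exons on the same strand.

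The 3 pro-survival genes had lower values in TTP-AA than in GFP, none by 0.5, and Mcl1 moved to the other side of 0 (0.01) once each chromosome was centred on its median. Bcl2l1 (ENSMUSG00000007659, chr2:152780668-152831728) encodes BCL-XL, which restrains BAK and BAX. It had 2194, 2174 and 1834 in GFP, 2386, 2347 and 1997 in TTP and 1747, 1724 and 1459 in TTP-AA, and every TTP-AA library was below every other library. The log2 difference was -0.33 for TTP-AA vs GFP (interval -0.38 to -0.28) and -0.45 for TTP-AA vs TTP (interval -0.50 to -0.39), with 0.12 for TTP vs GFP (interval 0.07 to 0.17). Of all genes, 9.23% stood lower than Bcl2l1 in TTP-AA vs GFP and 6.14% in TTP-AA vs TTP.

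Mcl1 (ENSMUSG00000038612, chr3:95658788-95663176) encodes the short-lived protein that restrains BAK and binds BIM. It had 27577, 33462 and 39298 in GFP, 21607, 26031 and 30836 in TTP and 25989, 31412.5 and 37020.2 in TTP-AA. The ranges overlapped in each comparison. Here TTP, not TTP-AA, stood furthest from GFP, with a log2 difference of -0.35 (interval -0.37 to -0.34), against -0.09 for TTP-AA vs GFP (interval -0.10 to -0.07) and 0.27 for TTP-AA vs TTP (interval 0.25 to 0.28). Genes of chromosome 3 had a median of -0.20 in TTP vs GFP, and less that median Mcl1 was at -0.16. The part of the chromosome in the Mcl1 value was not tested.

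Bcl2 (ENSMUSG00000057329, chr1:106538178-106714274), the founding pro-survival gene, had 1079.9, 826 and 979 in GFP, 1181, 896 and 1071 in TTP and 1013, 771 and 918 in TTP-AA. All groups overlapped. The log2 differences were 0.13 for TTP vs GFP (interval 0.05 to 0.20), -0.09 for TTP-AA vs GFP (interval -0.17 to -0.02) and -0.22 for TTP-AA vs TTP (interval -0.30 to -0.14). Bcl2 thus had the same order of groups as Bcl2l1, with TTP highest and TTP-AA lowest, at a smaller size. An antisense gene, D630008O14Rik, overlaps exons of Bcl2 on the other strand.

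**Figure D2:**
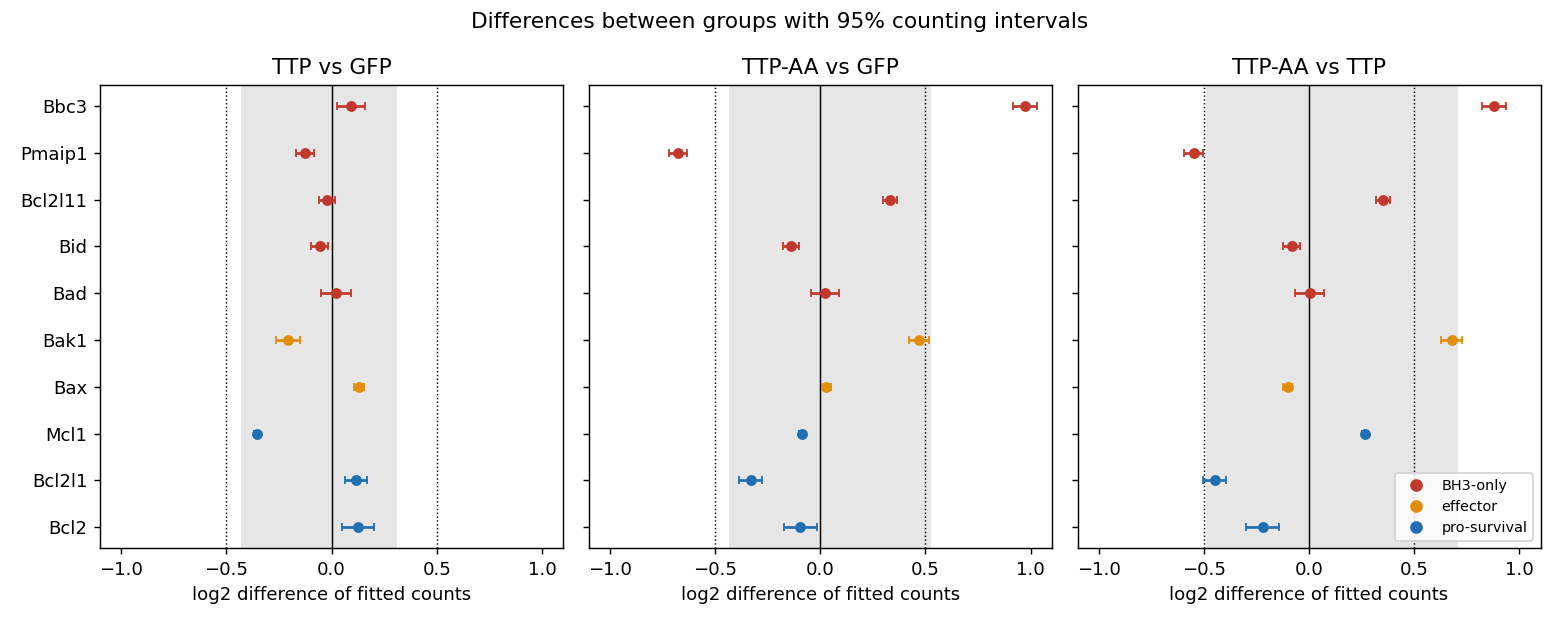
Log2 difference of fitted counts (horizontal axis) of each member in the 3 comparisons, with 95% counting intervals; grey bands span the 5th to 95th percentile of all 13027 genes and dotted lines mark 0.5 in either direction. In TTP vs GFP all members lie inside the dotted lines, and in the comparisons of TTP-AA the points of Bbc3 and Pmaip1 lie outside both lines and band.

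Set against all genes, 0 of 10 members passed 0.5 in TTP vs GFP, where 5.22% of 13027 genes did (1.5% higher and 3.72% lower). In TTP-AA vs GFP 2 members passed it, Bbc3 higher and Pmaip1 lower, where 8.58% of genes did (5.41% higher and 3.17% lower). In TTP-AA vs TTP 3 members passed it, Bbc3 and Bak1 higher and Pmaip1 lower, where 13.5% of genes did (8.77% higher and 4.71% lower). With 10 genes these counts are small, and they are not independent evidence, since the study named Bbc3, Pmaip1 and Bak1 after seeing these libraries together with translation libraries not analysed here, and Bcl2l11 after the latter. The comparisons share libraries: both comparisons with GFP use the same GFP libraries, and TTP-AA vs TTP is the difference between them.

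Counting error alone was small beside many of the differences. The interval left out 0 for 8, 9 and 9 members in TTP vs GFP, TTP-AA vs GFP and TTP-AA vs TTP, where it did so for 57.8%, 64.9% and 68.6% of all genes, so that this is common at these counts. It lay wholly inside 0.5 in either direction for 10, 7 and 6 members, where it did so for 78.3%, 75% and 69.8% of all genes. The ranges over libraries did not overlap for 0, 5 and 5 members, where 19.6%, 24.9% and 30.7% of all genes had ranges that did not overlap. The 5 members were Bbc3, Pmaip1, Bid, Bak1 and Bcl2l1 in both comparisons of TTP-AA.

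As the replicate-number term is the same in every group, ranges fail to overlap exactly where the group difference exceeds the range over replicate numbers. That range was 0.37 on the log2 scale in Bbc3, 0.53 in Pmaip1, 0.26 in Bak1, 0.26 in Bcl2l1 and 0.06 in Bid. Bad had the widest, 0.54, beside a range of 0.02 over groups.

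The pro-death genes lay on both sides of 0. Their median log2 difference was -0.02 in TTP vs GFP, 0.03 in TTP-AA vs GFP and 0.00 in TTP-AA vs TTP, beside medians of all genes that were within 0.01 of 0. In TTP-AA vs GFP 5 of 7 were above 0 and 2 below, from -0.67 for Pmaip1 to 0.97 for Bbc3. Of the 5, Bad (0.02) and Bax (0.03) lay close to 0 and turned to -0.08 and -0.01 once each chromosome was centred on its median. The median of the 3 pro-survival genes was 0.12 in TTP vs GFP, -0.09 in TTP-AA vs GFP and -0.22 in TTP-AA vs TTP, and 2, 0 and 1 of them were above 0. With chromosomes centred, Mcl1 moved to 0.01 in TTP-AA vs GFP.

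Levels were compared between genes as scaled fitted counts per kb of annotated exon, merged over all transcripts of a gene. This length can exceed that of the mRNA expressed, which lowers the level per kb, so the order of genes and the summed ratios depend on it. The library ranges are those of fitted values and hold no scatter between replicates. In GFP cells Mcl1 led with 9785 per kb and Bax followed with 7736, their library ranges of 8068 to 11497 and 6311 to 8674 overlapping. Pmaip1 (1279), Bid (1092), Bak1 (857), Bbc3 (617), Bcl2l11 (594), Bad (491) and Bcl2l1 (451) came next, and Bcl2 was lowest with 105 per kb. Neighbours in this order also overlapped from Pmaip1 to Bid and from Bbc3 down to Bcl2l1, and did not between Bax and Pmaip1, between Bid and Bak1, between Bak1 and Bbc3 or between Bcl2l1 and Bcl2.

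In TTP cells Bax stood first with 8471 per kb and Mcl1 second with 7653, with overlapping ranges. In TTP-AA cells Bbc3 ranked 3 with 1211 per kb, beside Bak1 with 1188 and an overlapping range, and Pmaip1 ranked 6 with 801, the reverse of their ranks in GFP and TTP cells. Summed per kb, the pro-survival genes had 1.20 times the level of the effectors in GFP cells, 0.896 times in TTP cells and 1.06 times in TTP-AA cells, and 2.54, 2.08 and 2.27 times the level of the BH3-only genes. Mcl1 and Bax make up most of the first ratio, in which Bak1 has a small share and the BH3-only genes have none.

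**Figure D3:**
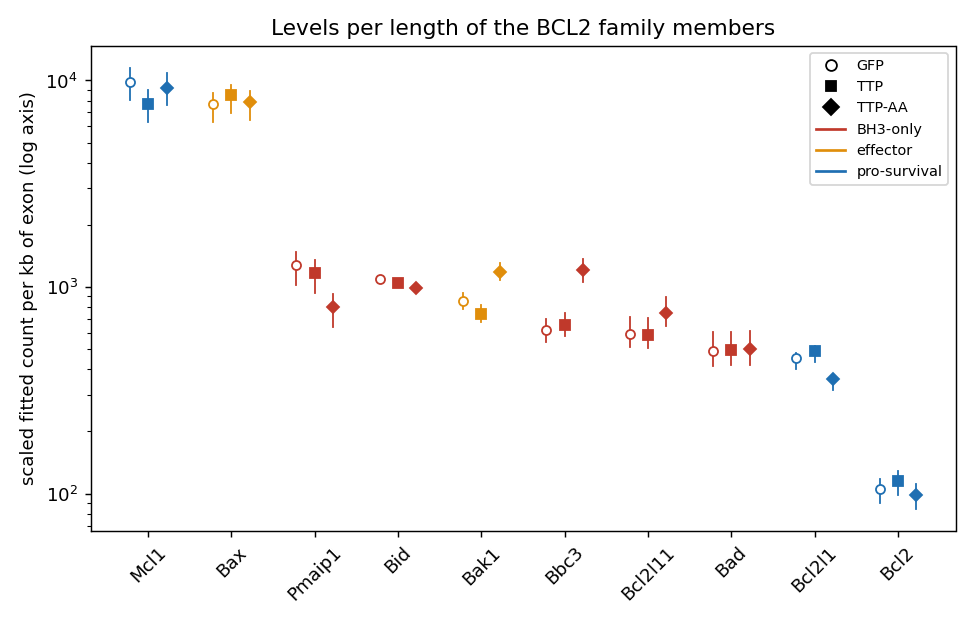
Scaled fitted count per kb of exon (vertical log axis) of the 10 members, ordered by their level in GFP cells; symbols are group means, vertical lines the range over the 3 libraries of a group and colours the role. Mcl1 (9785 in GFP) and Bax (7736) stand above all others and Bcl2 (105) below them, and Bbc3 and Pmaip1 exchange places in TTP-AA.

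Members with TATTTAT in the 3′UTR had a median log2 difference of -0.09 in TTP-AA vs GFP, with 1 above 0 and 4 below, and members without it had a median of 0.03, with 4 above and 1 below. Over all genes the medians were -0.07 for 3113 genes with the motif, 1177 of them above 0, and 0.02 for 8247 without it, 4433 of them above 0. In TTP vs GFP the members with the motif had a median of -0.02 (2 above 0, 3 below) and those without it 0.02 (3 above, 2 below). Over all genes the medians there were -0.04 with the motif (1331 of 3113 above 0) and 0.01 without it (4362 of 8247). In TTP-AA vs TTP the medians were -0.22 with the motif (2 above, 3 below) and 0.00 without it (3 above, 2 below). Over all genes they were -0.04 with the motif (1402 of 3113 above 0) and 0.00 without it (4146 of 8247). With 5 members in each set, these counts are too small to set the members apart from all genes. Bcl2l11 was the member with the motif that stood above 0 in TTP-AA vs GFP, and Bid the member without it that stood below. These sign counts depend on the processing, since some members lay close to 0. Once each chromosome was centred on its median, Mcl1, with the motif, moved to 0.01 in TTP-AA vs GFP. Bad and Bax, without it, moved to -0.08 and -0.01, and the interval of Bad included 0 before centring.

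Among 13 further BCL2 family genes, 8 had a mean of at least 10. Of these, 0 passed 0.5 in TTP vs GFP, 3 were higher and 1 lower in TTP-AA vs GFP, and 3 were higher and 0 lower in TTP-AA vs TTP, with medians of -0.17, 0.31 and 0.20; the shares of all genes past 0.5 were 5.22%, 8.58% and 13.5%. The lower gene was Bcl2l2, which encodes the pro-survival protein BCL-W, with means of 926 in GFP, 789 in TTP and 571 in TTP-AA and a log2 difference of -0.70 for TTP-AA vs GFP (interval -0.79 to -0.61). The 3 higher genes, named after their values were seen, were Bcl2a1a, Bcl2a1b and Bik, whose means over all libraries were 10.6, 35.1 and 36.8. Bcl2a1a had group means of 7.89 in GFP, 6.80 in TTP and 17.1 in TTP-AA, so it passed the filter only through the group where it was high. The counts and medians above include it, and its place among the 3 cannot be taken as a finding. Their intervals in TTP-AA vs GFP were wide and reached below 0.5, from 0.40 to 1.83 for Bcl2a1a, 0.26 to 1.04 for Bcl2a1b and 0.31 to 1.07 for Bik. Bcl2a1a and Bcl2a1b are near-identical copies of a pro-survival gene induced by NF-κB, and reads could be split between them or lost. A further copy in the list, Bcl2a1d, with a mean of 16.4, did not pass 0.5. Its log2 difference was 0.35 in TTP-AA vs GFP (interval -0.23 to 0.94).

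Of 32 genes that act before or after the BCL2 family (caspases, their inhibitors, death receptors, p53 and others), 31 had a mean of at least 10. In TTP vs GFP 1 was higher by at least 0.5 and 0 were lower, in TTP-AA vs GFP 1 was higher and 0 lower, and in TTP-AA vs TTP 3 were higher and 1 lower, with medians of -0.02, 0.11 and 0.05. These are 1, 1 and 4 of 31 genes beside 5.22%, 8.58% and 13.5% of all genes, so the list did not stand out by its counts. Only the largest rise and the largest fall past 0.5 in each comparison are named, as values only. Aifm1, which encodes a mitochondrial flavoprotein with a role in caspase-independent death, stood higher in TTP vs GFP (0.51, interval 0.47 to 0.56) and lower in TTP-AA vs TTP (-0.68, interval -0.73 to -0.64). Fas, a death receptor, was the gene higher in TTP-AA vs GFP (0.61, interval 0.54 to 0.68). Birc3, which encodes the NF-κB-induced inhibitor of apoptosis cIAP2, had the highest difference in TTP-AA vs TTP (0.66, interval 0.61 to 0.70).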

How the data were processed

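The authors sequenced ribosome-depleted total RNA of 9 libraries (3 per group), trimmed reads with Trim Galore, aligned them to GRCm38 with TopHat (TopHat2 2.0.12 in the submitters' processing notes), counted reads per Ensembl gene with HTSeq and fitted DESeq2 1.6.3 with library date and condition as terms. The alignment kept reads with more than 1 placement within a limit. How the counting treated such reads is not stated in the sources used here, so near-identical genes could share them or lose them. The deposited table of normalized counts holds a model signal and not measured values: none of its values is 0, its centred log2 values have 4 nonzero singular values where free libraries give 8, and differences between groups are the same at every replicate number (largest deviation 3.9e-14). Each value is the product of a library factor, a term for the replicate number and a term for the group. The authors' comparison tables also hold their fold changes, standard errors, test statistics and p-values, which were not used; their mean signal was, and the members' scaled means were 0.967 to 1.01 times it.

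Libraries were scaled here by the median ratio, using genes whose mean was 10 or more (13027 of 25494 genes, all 10 members included). A difference is the mean over replicate numbers of the log2 difference of same-numbered libraries, without a pseudocount. Its counting interval (95%) is the Poisson error of the fitted counts. Calls were absolute differences of at least 0.5. Groups and replicate numbers came from the sample titles. GENCODE for mouse on GRCm38 gave positions, exon lengths and 3′UTRs, a later annotation than the authors' own. The steps were tested on simulated data. Python 3.11.15, numpy 2.4.6, pandas 2.3.3 and matplotlib 3.10.9 were used.

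The members, lists and calls were chosen with earlier results of these data known. Named by rule were all 10 members, Zfp36 and, per further list and comparison, the gene with the largest rise and the largest fall past 0.5 with a mean of at least 50. Outside this rule Bcl2a1a, Bcl2a1b, Bcl2a1d and Bik were named after their values were seen. The cell type markers Lyz2, Adgre1, Fcgr1 and S100a8 and the genes that overlap members or Zfp36 were named as well. Alternatives were other library scalings, other minimum means, a larger fold, a pseudocount of 10, centring of each chromosome and leaving out each replicate number.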

Additional observations from a re-analysis of the deposited data

Results flagged for a closer look

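In 4 members TTP and TTP-AA lay on opposite sides of GFP in the fitted values at every replicate number. How many of all genes did so was not counted, so the 4 cannot be read as a trait of the family. For Bak1 the log2 difference from GFP was -0.21 in TTP and 0.47 in TTP-AA, for Bcl2l1 it was 0.12 and -0.33, for Bcl2l11 it was -0.021 (with a counting interval that includes 0) and 0.33, and for Bcl2 it was 0.13 in TTP and -0.094 in TTP-AA. These differences between the forms of TTP were not tested, because the fitted values hold no scatter between replicates, and the same direction at every replicate number follows from how the values were made. The GFP libraries are shared by both differences of each gene.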

How the results depend on the processing

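No paired analysis was possible because no result comes from a test: the values are fitted means with no residual. With a fold of 1 in place of 0.5, 0 members passed in TTP-AA vs GFP and 0 in TTP-AA vs TTP, and 178, 191 and 425 genes passed in TTP vs GFP, TTP-AA vs GFP and TTP-AA vs TTP. With a mean of at least 100 (10402 genes), 409, 700 and 1144 genes passed 0.5, because fewer genes entered, and the members' counts of 0, 2 and 3 did not move. Leaving out a replicate number gave 0, 2 and 3 members and 677 to 682, 1112 to 1120 and 1756 to 1766 genes, as each replicate number carries the same group differences. The members' counts were also 0, 2 and 3 with library totals, the 75th percentile, no filter on low values, a pseudocount of 10 and each chromosome centred on its median. Among the members' 30 differences, centring of chromosomes changed the sign of 5, to 0.01 for Bid and -0.16 for Bad in TTP vs GFP and to -0.08 for Bad, -0.01 for Bax and 0.01 for Mcl1 in TTP-AA vs GFP, and library totals changed that of Bad in TTP-AA vs TTP to -0.01. Biological scatter was not weighed against any difference, since the fitted values do not hold it and the standard errors of the authors' own comparisons were left unused.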
